A study of Mus musculus with 9 samples.

Results

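The 10 genes described here belong to BMP signalling: the ligands Bmp6 and Bmp7, the type I receptor Bmpr1a, the targets Id1, Id2, Id3 and Id4, the feedback inhibitors Smad6 and Smad7, and the secreted modulator Fstl1. They were taken by symbol from the 35006 gene symbols in the count files, all 10 were found, and all 10 were among the 15447 genes with enough reads to be tested. The libraries came from CD34+ alpha6+ bulge stem cells of the hair follicle, sorted by flow cytometry from C57BL/6J mice kept in individual cages. In 4 libraries the mice had been on dietary restriction (DR), at 70% of the food eaten by matched mice, and in 5 libraries the mice had eaten ad libitum (AL). Cells of 3 mice were pooled per group, and whether each library had its own pool, or how old the mice were, is not given in the labels. The mice came from 2 suppliers and animal houses, and the labels do not tie either to a library. The title of the series names irradiation, but no label says whether these mice were irradiated. The p-values therefore measure the spread between these libraries, which may be partly technical.

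Bone morphogenetic proteins bind a pair of type I and type II receptors, which phosphorylate Smad1, Smad5 and Smad9. These join Smad4 and switch on targets such as the Id genes, whose proteins hold back other helix-loop-helix transcription factors, and Smad6 and Smad7, which feed back on the receptor. In the hair follicle, BMP signals from the niche are known to hold bulge stem cells at rest, and secreted antagonists such as noggin are known to lift that hold when a new hair starts to grow.

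Libraries held 26119459 to 33559312 gene counts, and no difference in depth between DR and AL passed (exact two-sided permutation p = 0.548, adjusted over 3 library measures 0.548). Reads assigned to no gene made up 25.9% to 30.7% of a library, and the lower mean share in DR did not pass after adjustment (exact permutation p = 0.0476, adjusted p = 0.143). All 10 bulge markers were detected, with a summed level of 21105 to 22518 CPM in DR and 27873 to 38696 CPM in AL. Most of it came from the keratin genes Krt15 (means 8498 CPM in DR and 12365 CPM in AL), Krt5 (6990 and 13146 CPM) and Krt14. Of the 10, 5 were lower in DR, namely these 3, Sox9 and Cd34, and the libraries overlapped for Cd34. Itga6, Lhx2, Nfatc1, Lgr5 and Tbx1 did not pass. CPM are counts scaled to a common library size after TMM normalization. The 10 markers of G2 and M phase all fell, with a sum of 10.8 to 37.2 CPM in DR and 98.0 to 719 CPM in AL, where AL replicate 5 was the lowest. Endothelial markers (none of 4 passed) summed to 34.7 and 21.0 CPM in DR replicates 1 and 2 and to 17.0 CPM in AL replicate 1, against 4.22 and 4.74 CPM in the other DR libraries and 2.15 to 8.82 CPM in the other AL libraries. Leukocyte markers (none of 2 tested passed) were highest in the same 3 libraries, at 26.0 to 32.1 CPM. The melanocyte list, with 3 of 5 tested members lower and none higher, summed to 6.01 to 7.93 CPM in DR and 7.87 to 25.0 CPM in AL. Of these 3, Tyrp1 (mean 0.997 CPM in AL) and Kit (0.626 CPM) had enough reads to be tested only through the AL libraries. The suprabasal list, with none of 4 passing, summed to 1431 to 4534 CPM in DR and 1344 to 4021 CPM in AL. Across all genes tested, 19% were higher and 21.7% lower in DR. In bulk RNA, fewer cells of a type and less RNA per cell cannot be told apart.

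In DR bulge cells the ligand gene Bmp7, the receptor gene Bmpr1a and the inhibitor gene Smad6 were higher and Fstl1 was lower, while none of the 4 Id genes passed the test. A gene passed when edgeR's quasi-likelihood test gave a Benjamini-Hochberg adjusted p under 0.05 over all genes tested. Of the 10 genes, 3 rose and 1 fell, and these 4 were also the ones whose DR and AL libraries did not overlap, although only 2 of the 3 that rose stayed apart with upper-quartile scaling or with library size only. Across all genes tested 40.7% passed (19% higher and 21.7% lower in DR), and 32.9% did not overlap (15.9% higher and 17% lower). The share of 40% among the 10 genes was therefore that of the background. The median log2 fold change of the 10 was 0.14, against -0.02 over all genes tested.

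To set these transcripts beside regulatory sequence, the 250 bases before the annotated start were read from RefSeq (GRCm38.p6), which held windows for Bmp6, Bmpr1a, Id2, Id3, Id4, Smad6 and Fstl1. The 5 shown are those of 3 genes that passed (Smad6, Bmpr1a and Fstl1) and of 2 targets that did not (Id2 and Id3). Capitals mark GGCGCC, a GC-rich motif known to be bound by BMP-activated Smads, and CAGAC or its reverse complement GTCTG, the Smad-binding element. Each window reads 5′ to 3′ on the gene's own strand.
Smad6, chr9:64022060-64022309, minus strand: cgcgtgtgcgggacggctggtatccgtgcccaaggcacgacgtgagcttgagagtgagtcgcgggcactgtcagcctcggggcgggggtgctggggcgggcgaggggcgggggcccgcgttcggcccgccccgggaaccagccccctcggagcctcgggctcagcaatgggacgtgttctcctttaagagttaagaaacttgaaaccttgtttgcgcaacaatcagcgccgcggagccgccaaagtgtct
Bmpr1a, chr14:34502547-34502796, minus strand: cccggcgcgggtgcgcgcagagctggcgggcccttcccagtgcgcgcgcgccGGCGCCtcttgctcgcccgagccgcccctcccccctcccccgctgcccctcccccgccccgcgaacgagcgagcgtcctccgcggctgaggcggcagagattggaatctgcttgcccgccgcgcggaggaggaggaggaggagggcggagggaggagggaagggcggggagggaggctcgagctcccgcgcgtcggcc
Id2, chr12:25096093-25096342, minus strand: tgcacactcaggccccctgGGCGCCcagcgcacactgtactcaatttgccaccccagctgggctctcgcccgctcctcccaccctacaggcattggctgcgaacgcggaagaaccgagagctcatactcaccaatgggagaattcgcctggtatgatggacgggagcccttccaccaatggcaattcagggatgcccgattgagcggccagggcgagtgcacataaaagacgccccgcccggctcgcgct
Id3, chr4:136143572-136143821, plus strand: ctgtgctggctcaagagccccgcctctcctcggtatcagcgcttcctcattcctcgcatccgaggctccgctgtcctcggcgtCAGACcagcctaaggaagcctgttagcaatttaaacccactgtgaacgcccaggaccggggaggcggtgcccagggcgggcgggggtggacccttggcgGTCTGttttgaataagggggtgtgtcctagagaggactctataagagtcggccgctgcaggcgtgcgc
Fstl1, chr16:37776805-37777054, plus strand: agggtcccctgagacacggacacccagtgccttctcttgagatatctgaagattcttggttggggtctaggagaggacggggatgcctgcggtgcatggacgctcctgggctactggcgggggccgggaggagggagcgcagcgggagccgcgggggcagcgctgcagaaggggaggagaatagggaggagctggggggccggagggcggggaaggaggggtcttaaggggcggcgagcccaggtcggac
The window of Bmpr1a and that of Id2 each held 1 GGCGCC and no CAGAC, that of Id3 held 2 CAGAC and no GGCGCC, and those of Smad6 and Fstl1 held neither. Of the windows not shown, that of Id4 held 1 GGCGCC and that of Bmp6 held 1 CAGAC. For Id4 alone, the bases just after the annotated start matched no GENCODE transcript of the gene, so its window is less certain. Over 32851 RefSeq windows of this length, 9.59% held GGCGCC and 42.2% held CAGAC on either strand. These windows were not matched for GC content, which was 62.8% in the window of Id2, 75.6% in that of Id4 and 78.8% in that of Bmpr1a. A match is only a run of letters, and elements outside the window were not searched.

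Among the ligands, Bmp7, a secreted BMP made by many epithelia, stood at 73.7, 51.6, 83.4 and 67.1 CPM in DR replicates 1 to 4, against 47.1, 38.4, 48.1, 30.0 and 39.1 CPM in AL replicates 1 to 5. The lowest DR library lay just above the highest AL library, so the groups did not overlap. Means were 69.0 ± 13.4 CPM in DR and 40.5 ± 7.35 CPM in AL (SD, n = 4 and 5), and the rise of 0.77 on the log2 scale passed (SE 0.16, edgeR adjusted p = 0.0032). Of all genes tested, 7.58% were higher in DR by at least as much.

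Bmp6, known in mouse bulge cells as a signal that keeps them from dividing, had 17.98, 11.1, 16.4 and 16.7 CPM in DR libraries, against 10.8, 9.06, 10.8, 12.0 and 21.8 CPM in AL libraries. AL replicate 5 was the highest of all 9 libraries and the other AL libraries lay below 3 of the 4 DR libraries, so the groups overlapped with or without it. Its log2 fold change was 0.27 (95% interval -0.27 to 0.81, edgeR adjusted p = 0.41). Without AL replicate 5 it was 0.54 and passed (edgeR adjusted p = 0.023), so that library decided the call.

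**Figure D1:**
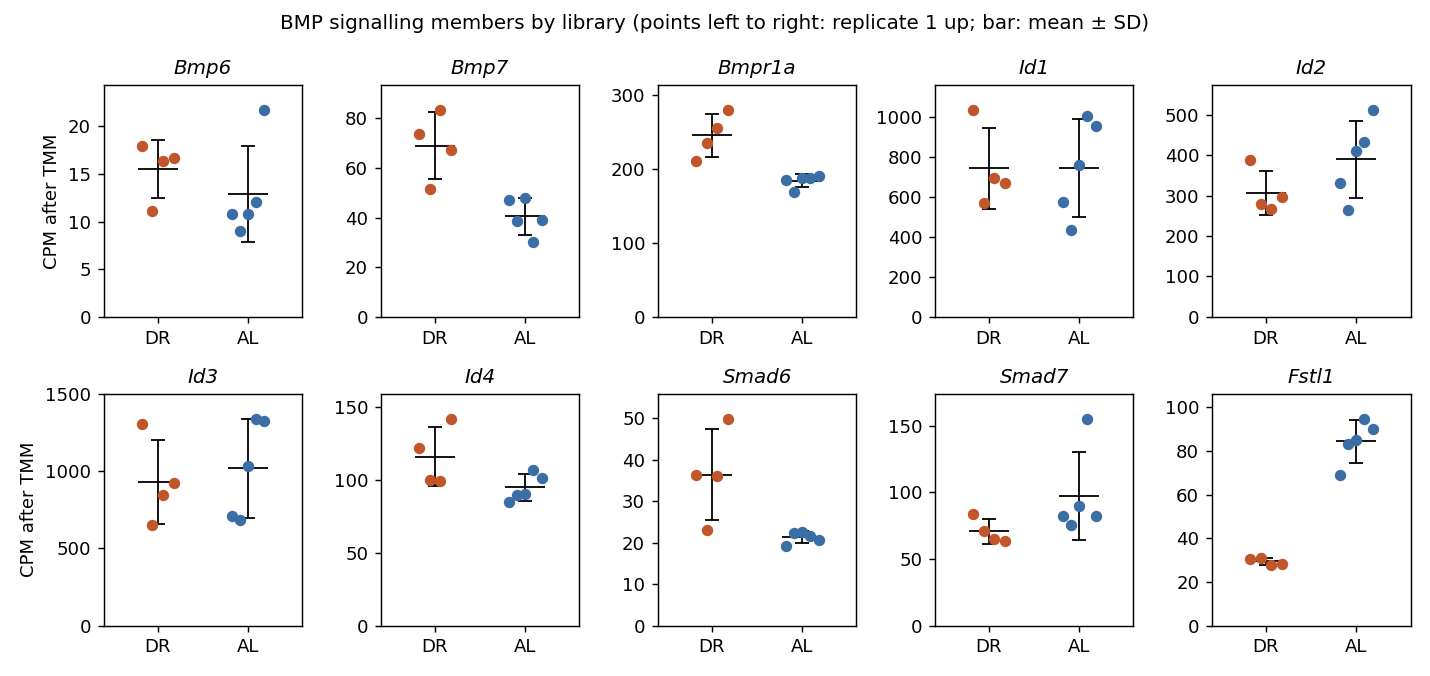
Level of each of the 10 genes in every library (points, CPM after TMM, each axis from 0), DR in orange at the left and AL in blue at the right, with the mean and SD as bars. DR and AL points are fully apart for Bmp7, Bmpr1a, Smad6 and Fstl1 and overlap for the other genes.

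Bmpr1a, the type I receptor whose loss in mouse skin is known to disturb hair follicle rest and differentiation, had 211, 236, 255 and 279.8 CPM in DR libraries. In AL libraries it had 185, 169, 188, 188 and 191 CPM, a narrow band below every DR library. The log2 fold change was 0.41 (SE 0.10, edgeR adjusted p = 0.0058), the smallest change among the 4 genes that passed. Of all genes tested, 18.9% rose by as much or more.

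None of the Id genes, the best known direct targets of BMP Smads, passed. Id1 had 1036, 569.9, 696 and 672 CPM in DR libraries and 574, 433, 760.0, 1006 and 953 CPM in AL libraries. DR replicate 1, AL replicate 4 and AL replicate 5 were high, AL replicate 2 was the lowest, and both groups covered much the same range. The means were 744 ± 203 CPM in DR and 745 ± 244 CPM in AL (SD, n = 4 and 5), with a log2 fold change of 0 (95% interval -0.56 to 0.56, edgeR adjusted p = 0.99).

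Id3 had 1303, 652, 848 and 924 CPM in DR libraries and 708, 683, 1035, 1341 and 1326 CPM in AL libraries. The same 3 libraries as for Id1 were high, and the groups again overlapped. Its log2 fold change was -0.13 (95% interval -0.69 to 0.43, edgeR adjusted p = 0.72).

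Id2 had 387, 279, 267 and 297 CPM in DR libraries, against 329.9, 263, 409, 432 and 512 CPM in AL libraries. DR replicate 1 was again the highest of its group and AL replicate 2 the lowest of its own. Its log2 fold change of -0.34 did not pass (95% interval -0.75 to 0.07, edgeR adjusted p = 0.17).

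Id4, which unlike the other Id proteins is also known to bind and hold back its own relatives, had 122, 100.3, 99.7 and 142 CPM in DR libraries and 85.2, 89.9, 90.7, 107 and 102 CPM in AL libraries. DR replicates 1 and 4 lay above every AL library, and DR replicates 2 and 3 lay between AL libraries. The log2 fold change was 0.29 (95% interval 0.03 to 0.55 without adjustment, edgeR adjusted p = 0.075). Leaving out DR replicate 2 gave 0.36 and an adjusted p of 0.049, and leaving out DR replicate 3 gave 0.37 and 0.047, so Id4 passed in both cases.

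**Figure D2:**
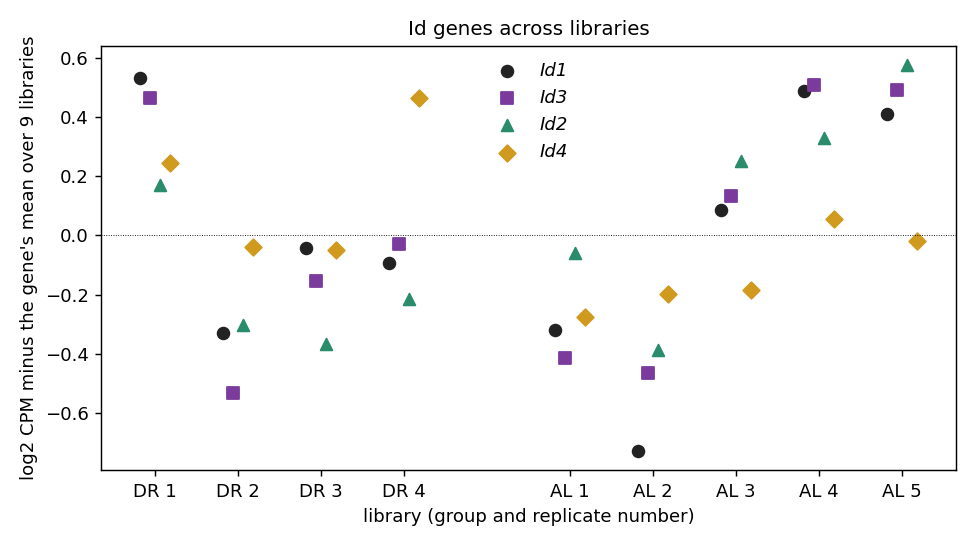
Log2 CPM of Id1, Id3, Id2 and Id4 in each library, less the mean of that gene over the 9 libraries, with DR libraries at the left and AL libraries at the right. Id1 and Id3 lie close together in most libraries, high in DR replicate 1 and AL replicates 4 and 5 and low in DR replicate 2 and AL replicates 1 and 2, while Id4 is highest in DR replicate 4.

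From the lowest to the highest library Id1 differed 1.82-fold within DR and 2.32-fold within AL, and Id3 differed 2-fold within DR and 1.96-fold within AL. Id2 differed 1.45-fold within DR and 1.95-fold within AL, and Id4, the tightest of the 4, 1.43-fold within DR and 1.26-fold within AL. Over the 6 other members the same ratio ran between 1.11 (Fstl1) and 2.16 (Smad6) within DR and between 1.13 (Bmpr1a) and 2.40 (Bmp6) within AL. Profiles were compared by the root mean square distance of log2 CPM over the 9 libraries after subtracting each gene's mean, among 10080 other genes with a descriptive symbol and a mean log2 CPM of at least 2. Closest to Id1 was Slc35e4, a solute carrier family gene, at 0.12, and Id3 was next at 0.13. Tubb2a, a beta tubulin (0.15), Bcar1, an adhesion adaptor (0.17), and the transcription factor gene Klf4 (0.18) followed, where the distance of Id1 from its own mean was 0.40. Over all genes tested Id2 ranked 55 in closeness to Id1 and Id4 ranked 1339. The 9 libraries share depth and composition effects, so this is a description of these libraries.

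Per kilobase of exon (GENCODE M21 on GRCm38, not the build used for counting), Id1 stood at 641 ± 175 CPM per kilobase in DR and 642 ± 210.4 in AL. Id3 stood at 520.1 ± 152 in DR and 569 ± 178 in AL. Id1 and Id3 were measured in the same libraries, and the difference between them was not tested. Id2 lay lower at 126.1 ± 22.4 in DR and 159.7 ± 39.3 in AL, and Id4 at 30.2 ± 5.28 in DR and 24.7 ± 2.37 in AL (SD, n = 4 and 5). On the same scale the receptor Bmpr1a stood at 38.6 ± 4.61 in DR and 29.0 ± 1.41 in AL, and Smad7, Bmp7 and Smad6 lay between 6.64 and 21.5. Fstl1 stood at 5.98 ± 0.307 in DR and 17.2 ± 1.998 in AL, and Bmp6 was lowest in both groups, at 3.98 ± 0.782 in DR and 3.31 ± 1.30 in AL.

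Of the feedback inhibitors Smad6 passed and Smad7 did not, and the difference between them was not tested. Smad6, which blocks BMP receptors and Smad1 and is itself a BMP target, had 36.4, 23.1, 36.0 and 49.9 CPM in DR libraries, against 19.1, 22.4, 22.6, 21.6 and 20.7 CPM in AL libraries. The AL libraries were nearly alike, DR replicate 2 lay just above them and DR replicate 4 was the highest. The rise of Smad6, 0.77 on the log2 scale, passed (SE 0.17, edgeR adjusted p = 0.0052). Smad6 is also known as an endothelial gene. The endothelial marker sum was 4.22 CPM in DR replicate 4, where Smad6 was highest, and without DR replicates 1 and 2 and AL replicate 1, the libraries highest in endothelial and leukocyte markers, its log2 fold change was 0.98 (edgeR adjusted p = 0.0037). The part of endothelial cells in the rise of Smad6 was not tested.

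Smad7, which blocks receptors of both the BMP and the TGF-beta branch, had 83.5, 70.8, 64.9 and 63.3 CPM in DR libraries and 82.5, 75.7, 89.5, 155 and 82.4 CPM in AL libraries. AL replicate 4 stood far above the rest, and the groups overlapped. The log2 fold change was -0.46 (95% interval -0.90 to -0.02 without adjustment, edgeR adjusted p = 0.090) and did not pass. Without AL replicate 4 it was -0.23 (adjusted p = 0.11).

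Fstl1, a secreted follistatin-like glycoprotein known to bind BMPs and to dampen their signal in the mouse embryo, had 30.4, 31.0, 27.8 and 28.4 CPM in DR libraries. In AL libraries it had 68.9, 83.3, 84.9, 94.9 and 90.3 CPM, so every AL library held more than 2 times the level of any DR library. It fell by 1.52 on the log2 scale (SE 0.10, edgeR adjusted p = 4.6e-06), with means of 29.4 ± 1.51 CPM in DR and 84.5 ± 9.82 CPM in AL (SD, n = 4 and 5). Of all genes tested, 3.89% were lower in DR by at least as much.

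Fibroblasts also express Fstl1. Of 8 fibroblast markers, 6 could be tested, of which the collagen genes Col1a1 (-3.34), Col1a2 (-1.40) and Col6a1 (-1.67) fell and the receptor gene Pdgfra rose (1.49, all log2 fold changes). The summed level of the 8 markers was 205 to 264 CPM in DR and 491 to 886 CPM in AL, most of it from Col6a1 (178 ± 26.7 CPM in DR and 566 ± 144 CPM in AL). Dcn (0.81, adjusted p = 0.38) and Vim (0.41, adjusted p = 0.67) did not pass. Lum was near 0, with 27 reads over the 9 libraries, and Col3a1 had 154 reads. The part of such cells in the fall of Fstl1 was not tested.

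**Figure D3:**
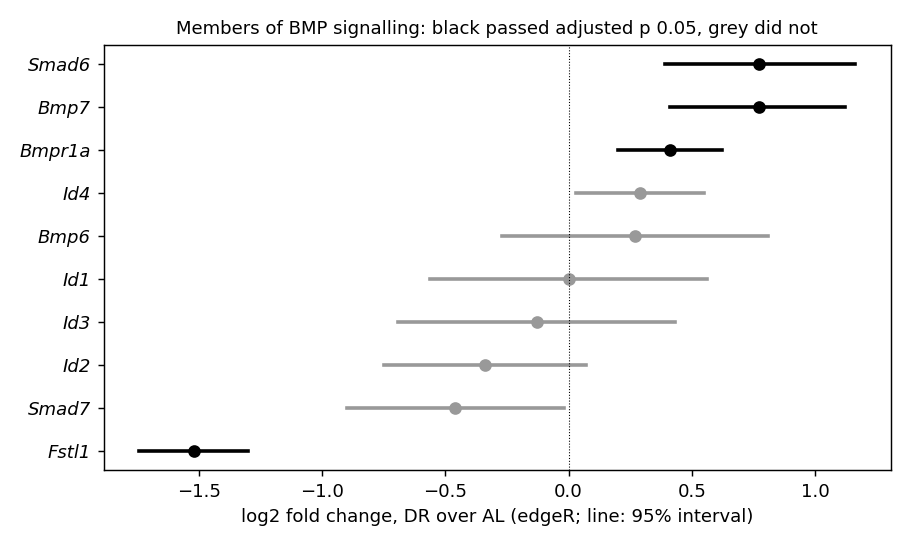
Log2 fold change of DR over AL for the 10 genes (points) with 95% intervals before adjustment (lines), black for the 4 genes that passed and grey for the 6 that did not. Fstl1 lies alone at -1.52, Smad6 and Bmp7 at 0.77, and the intervals of Id1, Id2, Id3 and Bmp6 include 0.

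The genes nearest to Fstl1 in profile were St6galnac6, a sialyltransferase gene (root mean square distance 0.14), Serpinh1, which encodes a collagen chaperone (0.14), Pltp, a phospholipid transfer protein (0.15), Pycrl, an enzyme of proline synthesis (0.15), and Zdhhc2, a palmitoyltransferase (0.16). Fstl1 itself lay 0.76 from its own mean. Nearest to Bmp7 (0.45 from its own mean) were Myo5b, a myosin motor, and Rab11fip1, a partner of the recycling GTPase Rab11, both at 0.11. Tlr2 (0.12), Nxph3 (0.14) and Irgm1 (0.15) followed. Since the members parted by diet, likeness to them is in large part a difference by diet.

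The rest of the pathway moved in both directions. A list of 53 other BMP genes held 42 that could be tested. Of these 12 rose and 8 fell, 47.6% against 40.7% of all genes tested (19% higher and 21.7% lower). The median log2 fold change was 0.14 against -0.02. Each role below holds few genes, so its counts are a description. In 9 of the 42 the DR libraries lay above all AL libraries and in 7 below them. Of all genes tested, 15.9% lay above and 17% below in this way. These counts include Bmpr1b, which had enough reads to be tested only through its DR libraries, and Gdf5 and Bmper, only through their AL libraries. The 11 genes left out, such as Bmp5, Bmp8a and Chrdl1, had at most 69 reads over the 9 libraries, and Bmp10 had none.

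**Figure D4:**
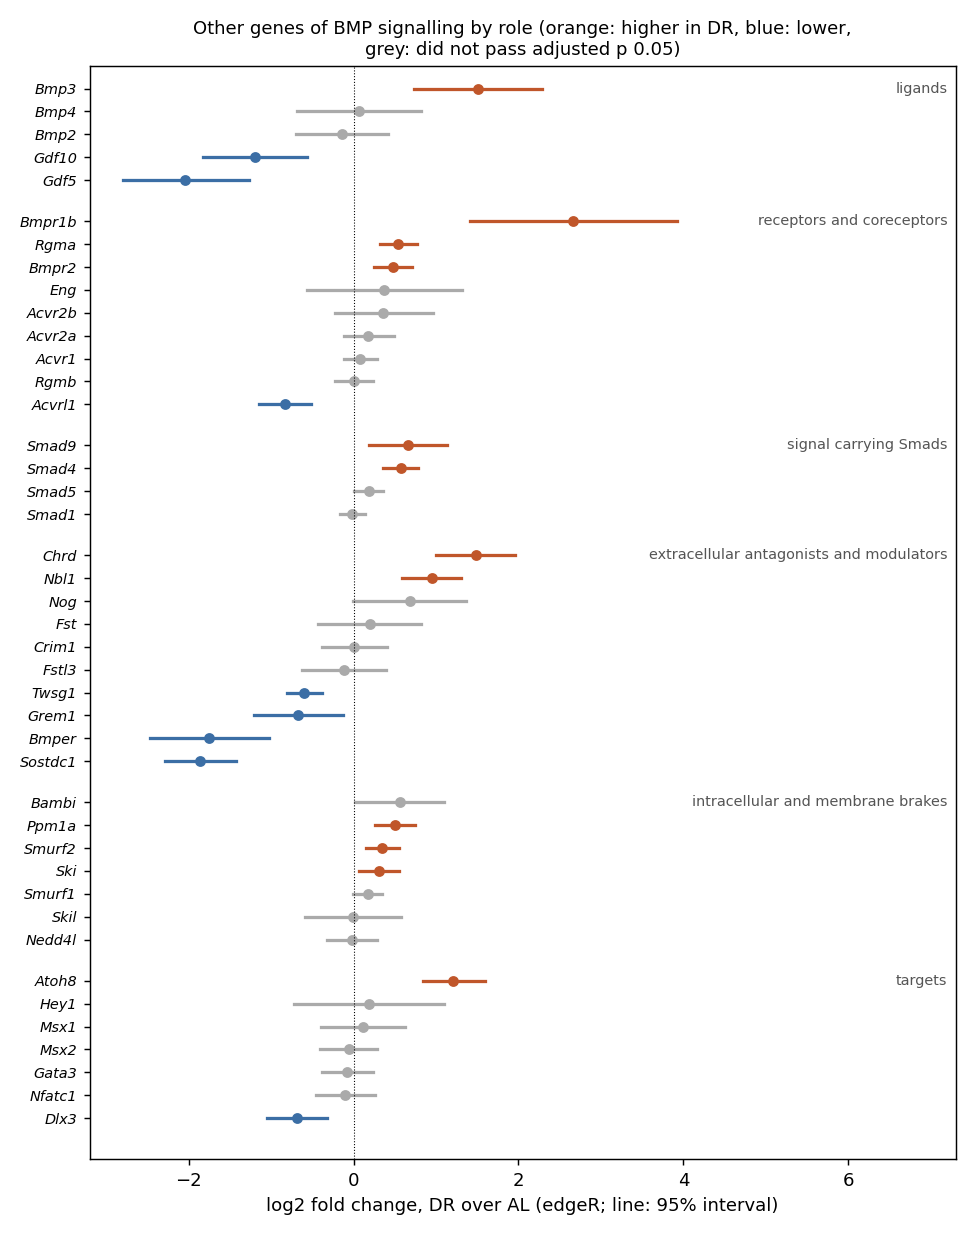
Log2 fold change of DR over AL with 95% intervals before adjustment for the 42 tested genes of the wider BMP list, grouped by role, orange for the 12 that rose, blue for the 8 that fell and grey for the 22 that did not pass. Receptor and Smad genes that passed lie mostly at the right, apart from Acvrl1, and the extracellular modulators spread from -1.86 (Sostdc1) to 1.48 (Chrd).

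Of 5 further ligand genes tested, 1 rose and 2 fell. Gdf10, also called Bmp3b, averaged 23.3 ± 5.23 CPM in DR and 53.4 ± 19.6 CPM in AL (log2 fold change -1.20, edgeR adjusted p = 0.0065), and AL replicate 5, at 24.6 CPM, lay within the DR range. Gdf5 (-2.04, adjusted p = 0.0011) and Bmp3 (1.51, adjusted p = 0.0062) were near or below 2 CPM on average in both groups. Gdf5 had 6 to 17 reads in DR libraries and 28 to 67 in AL libraries, and would not have been tested on its DR reads alone. Bmp3 lost its call without DR replicates 1 and 2 and AL replicate 1 (1.09, adjusted p = 0.089). Bmp2 (-0.14) and Bmp4 (0.07), which signal through Bmpr1a, did not pass.

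Among 9 further receptors and coreceptors 3 rose and 1 fell. Bmpr2, the type II partner of Bmpr1a, had 85.4, 103, 107 and 106 CPM in DR libraries, against 77.7, 62.3, 71.3, 66.1 and 82.6 CPM in AL libraries. Every DR library was above every AL library, and the log2 fold change was 0.48 (SE 0.10, edgeR adjusted p = 0.0041). Rgma, a membrane-anchored BMP coreceptor, rose by 0.54 (152 ± 17.3 CPM in DR and 105 ± 10.3 CPM in AL, adjusted p = 0.0018). Bmpr1b, an alternative type I receptor, rose by 2.66 (adjusted p = 0.0038) at 0.855 ± 0.339 CPM in DR and 0.128 ± 0.117 CPM in AL. It had 14 to 39 reads in DR libraries and 0 to 8 in AL libraries. Only the DR libraries, where it was high, brought it enough reads to be tested, and the stricter filter left it out. Acvrl1, a type I receptor best known from endothelium, fell by 0.83 on the log2 scale (19.7 ± 1.46 CPM in DR, 35.2 ± 7.82 CPM in AL, adjusted p = 0.0012). The 4 endothelial markers had log2 fold changes of 0.30 (Tek) to 1.62 (Pecam1) with wide spreads, none passed, and their part in the fall of Acvrl1 was not tested.

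Of the Smads that carry the signal, Smad4, the partner shared with TGF-beta signalling, had 109, 128, 131 and 147 CPM in DR libraries, against 87.3, 80.5, 85.4, 84.7 and 95.9 CPM in AL libraries. No library overlapped, and Smad4 rose by 0.57 (SE 0.10, edgeR adjusted p = 9.2e-04). Smad9 also rose (0.66, adjusted p = 0.030), but it did not pass without DR replicate 1, DR replicate 4, AL replicate 2, AL replicate 3 or AL replicate 4 (adjusted p 0.053 to 0.086), nor without DR replicates 1 and 2 and AL replicate 1 (log2 fold change 0.77, adjusted p = 0.099). Smad1 was nearly level, at 95.4 ± 3.53 CPM in DR and 96.5 ± 5.35 CPM in AL (log2 fold change -0.02, 95% interval -0.17 to 0.14), and Smad5 did not pass (0.19, adjusted p = 0.086).

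Of 10 secreted modulators tested, 2 rose and 4 fell. Sostdc1, an inhibitor of both BMP and Wnt signals, had 77.2, 97.0, 68.6 and 54.2 CPM in DR libraries, against 244, 304, 255, 345 and 198 CPM in AL libraries. The highest DR library lay below the lowest AL library, and Sostdc1 fell by 1.86 on the log2 scale (SE 0.20, edgeR adjusted p = 7.3e-05). Twsg1, which helps chordin bind BMPs, fell by 0.60 on the log2 scale (96.6 ± 5.27 CPM in DR, 146 ± 17.2 CPM in AL, adjusted p = 8.4e-04).

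Chrd, the BMP antagonist chordin, had 5.54, 5.09, 5.19 and 3.55 CPM in DR libraries, against 1.84, 1.96, 2.11, 1.61 and 1.09 CPM in AL libraries. It rose by 1.48 (SE 0.22, edgeR adjusted p = 4.6e-04) from a low level in both groups. Nbl1, a secreted antagonist of the DAN family, rose by 0.95 (592 ± 69.6 CPM in DR, 307 ± 69.6 CPM in AL, adjusted p = 0.0011). Nog, which encodes noggin, averaged 59.0 ± 10.6 CPM in DR and 36.9 ± 17.7 CPM in AL and did not pass (log2 fold change 0.68, adjusted p = 0.10).

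The other modulators that fell were Bmper (-1.75, adjusted p = 0.0018) and Grem1, which encodes gremlin. Grem1 had 277, 357, 354 and 327 CPM in DR libraries, against 436, 389.6, 472, 399 and 919 CPM in AL libraries. AL replicate 5 held about 2 times the level of the other AL libraries, yet the groups did not overlap with or without it. The log2 fold change was -0.67 (edgeR adjusted p = 0.048), and -0.37 without AL replicate 5 (adjusted p = 0.025). The call was lost without any 1 of DR replicates 1 to 4, AL replicate 1 or AL replicate 3 (adjusted p 0.051 to 0.11). It was also lost with DESeq2 size factors (0.054), with robust dispersion (0.052) and without DR replicates 1 and 2 and AL replicate 1 (log2 fold change -0.68, adjusted p = 0.20).

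Of 7 further brakes inside the cell or at its membrane, 3 rose and none fell, where 19% of all genes tested rose and 21.7% fell. Ppm1a, a phosphatase known to act on Smads, rose by 0.50 (159 ± 22.9 CPM in DR, 113 ± 10.1 CPM in AL, edgeR adjusted p = 0.0041), and Smurf2, a ubiquitin ligase that marks Smads and receptors for breakdown, rose by 0.35 (adjusted p = 0.012). Ski, a corepressor that binds Smads, had a log2 fold change of 0.31 (adjusted p = 0.043), and its call was lost without any 1 of DR replicates 1, 3 and 4 or AL replicates 1, 2, 3 and 5 (adjusted p 0.051 to 0.12), with no filter (0.076), with scaling by library size alone (0.054) or by the upper quartile (0.069), and without DR replicates 1 and 2 and AL replicate 1 (log2 fold change 0.39, adjusted p = 0.086). Bambi, a decoy receptor, did not pass (0.56, adjusted p = 0.088).

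Among 7 further targets, Atoh8 rose and Dlx3 fell. Atoh8, a helix-loop-helix factor known as a BMP target, had 17.0, 14.8, 16.9 and 17.2 CPM in DR libraries, against 7.40, 5.11, 6.64, 9.89 and 6.55 CPM in AL libraries. All DR libraries were higher than all AL libraries, with a log2 fold change of 1.21 (SE 0.17, edgeR adjusted p = 3.7e-04). Dlx3, a homeobox factor of the hair shaft, fell by 0.69 on the log2 scale (19.0 ± 2.60 CPM in DR, 30.6 ± 6.68 CPM in AL, adjusted p = 0.0068), and did not pass without DR replicates 1 and 2 and AL replicate 1 (-0.57, adjusted p = 0.098). The homeobox genes Msx1 (0.11) and Msx2 (-0.06), Gata3 (-0.08), Hey1 (0.19) and Nfatc1 (-0.10), a factor of bulge rest known to depend on BMP, did not pass.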

How the data were processed

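The authors deposited raw read counts per gene symbol, 1 file per library. The submitters' processing notes list HTSeq 0.11.2, Bowtie, TopHat2 2.1.0, FastQC 0.11.5 and the mm9 build. For the annotation and the strand setting the sources used here give nothing. Per the labels' protocols, TruSeq RNA v2 libraries were read for 51 cycles from 1 end. The kit does not mark strand, so overlapping antisense reads cannot be told apart. Of 35012 lines, 6 name no gene, and neither library sizes nor tests include them (25.9% to 30.7% of a library's reads).

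From the deposited counts, edgeR 4.0.16 in R 4.3.3 (filterByExpr, TMM, quasi-likelihood F test on diet, Benjamini-Hochberg adjustment over 15447 genes, threshold 0.05) compared DR (n = 4) with AL (n = 5). SE and 95% intervals are those implied by the F statistic. The test was checked on simulated data, where it missed many of the changes put in at both sizes tried, and more of the smaller ones. Far fewer genes were changed there than passed here, so those misses do not measure the power of the test in these data. A gene that did not pass may still differ. Each library counted once, since chi-square over its degrees of freedom was 24.6 to 110 in the 16 within-group pairs, above counting noise. Counting error adds little to the spread at this depth for all but the lowest genes.

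All 10 members are named whatever their result. From the wider list up to 4 genes a role with the smallest p are named, and others with values were chosen after their values were seen. The members and lists were chosen with earlier results of these data known. Alternatives used limma 3.58.1 and DESeq2 1.42.0. RefSeq windows are on GRCm38.p6 and were used only for sequence.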

Additional observations from a re-analysis of the deposited data

Results flagged for a closer look

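Within each diet, the library farthest from the rest was compared with the range of its group for the 10 members and the 20 other BMP genes that passed, by Dixon's ratio. Of 60 such groups 8 held a library that stood apart. The cutoffs flag about 1 in 20 groups when values are independent and normally distributed. These genes share the same libraries and their CPM were not log-transformed, so the count is a description.

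AL replicate 5, the AL library lowest in G2 and M phase markers, stood apart in 3 of them. It had 21.8 CPM of Bmp6, against 9.06 to 12.0 CPM in the other AL libraries, 48.9 CPM of Acvrl1, against 29.5 to 33.2 CPM, and 919 CPM of Grem1, against 389.6 to 472 CPM. AL replicate 4 stood apart for Smad7, at 155 CPM against 75.7 to 89.5 CPM in the other AL libraries, and for Bmper, at 2.78 CPM against 1.39 to 1.58 CPM. AL replicate 2 had 169 CPM of Bmpr1a, against 185 to 191 CPM. In DR, replicate 1 had 85.4 CPM of Bmpr2, against 103 to 107 CPM, and replicate 2 had 14.8 CPM of Atoh8, against 16.9 to 17.2 CPM.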

How the results depend on the processing

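The alternatives were other scalings, filters and tests, robust dispersion, a replicate block and leaving out each library; leaving out DR replicates 1 and 2 and AL replicate 1 together was added after seeing the data. Bmp7, Bmpr1a, Smad6 and Fstl1 kept their direction and their call under each (highest adjusted p 0.011, 0.020, 0.016 and 3.6e-04). Of the members, 5 rose with the replicate block, where Bmp6 (0.52, adjusted p = 0.011) and Id4 (0.31, adjusted p = 0.036) passed too. No DR library shares the number of AL replicate 5, so the block gives that library no weight in the comparison of diets. Bmp6 also passed without AL replicate 5 (0.54, edgeR adjusted p = 0.023), and these results for Bmp6 are not independent. The labels do not say that replicate numbers pair the libraries. After each gene's mean within its diet was subtracted from log2 CPM, same-numbered libraries correlated at 0.0289 to 0.228 over genes. Of 4 DR replicates, 1 fitted its own number best. With library size only, or a threshold of 0.1, 2 members fell, Smad7 (-0.51, adjusted p = 0.047 with library size only) being the second. With no filter 25.3% of all genes passed, more genes being tested. The median of the wider list was 0.02 with the 3 libraries left out and 0.04 to 0.20 with 1 left out. The number of members lower without overlap was 2 with the 3 left out and 1 to 2 with 1 left out, and the number higher without overlap was 2 with upper-quartile scaling and with library size only. The log2 fold change of Id1 changed sign with DESeq2 size factors (0.01), the DESeq2 Wald test (0.01), limma-voom with quality weights (0.09) and the block (0.14), and ran from -0.20 to 0.13 with 1 library left out. That of Id3 ran from -0.33 to 0.01. The cause was not tested. Genes under 1 CPM, such as Bmpr1b, are limited by depth.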
